A study of Mus musculus with 18 samples.

Results

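The genes described here are the subunits of the transcription factor NF-kB (Nfkb1, Nfkb2, Rel, Rela and Relb) and a set of genes that hold the factor in check or modify it (Nfkbia, Nfkbib, Nfkbie, Tnfaip3 and Bcl3), 10 in all, read across mouse lymphoma cultures treated with a DNA-damaging drug. A gene was taken where the platform annotation gave a probe set with that symbol alone, and the probe set with the highest mean signal over the arrays stood for it. Of the 10 genes, 9 had such a probe set, all 9 passed the filter on low signal, and they are 9 of 11897 genes tested and of 18194 genes with a symbol. Nfkb1 was not analysed here. The 9 probe sets lay above 4.86 on the log2 scale, the median of all values, on all 17 arrays, so none of them was near the filter.

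NF-kB is a family of dimeric transcription factors that waits in the cytoplasm, bound by inhibitory IkB proteins. Signals from cytokine, antigen and Toll-like receptors or from damaged DNA activate the IKK kinases, which mark the inhibitors for destruction and let the dimers enter the nucleus. Many of the genes that NF-kB switches on encode its own inhibitors and subunits, which closes a feedback loop, and in B cells the factor supports survival and, in senescent cells, the secretion of cytokines. Activity is set largely by protein modification and location, which arrays do not measure.

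The cells came from 3 primary B-cell lymphomas, numbered 4146, 4936 and 5043, of Eµ-myc mice in a C57/Bl6 background, in which a B-cell immunoglobulin enhancer drives the Myc oncogene. All groups shared the same changes: the lymphomas were Suv39h1-null, so they lacked a histone H3 methyltransferase of heterochromatin, and they had been transduced by retrovirus with Bcl2, which blocks apoptosis, and with Suv39h1-ERT2, whose enzyme activity is restored by 4-hydroxytamoxifen (4-OHT). The groups were untreated cells (n = 3), cells after 5 days of Adriamycin (ADR, a DNA-damaging drug; n = 3), cells after 5 days of ADR with 4-OHT (n = 3), and cultures kept for another 14 days without the compounds. Of those, the ADR outgrowth (n = 2) grew from cells given ADR alone, and the small outgrowth and big outgrowth (n = 3 each) were cells that had received ADR with 4-OHT and were sorted by flow cytometry for morphologically small or big cells. No group received 4-OHT alone, so an effect of 4-OHT itself and of Suv39h1 activity cannot be told apart. For 5043 the column of the ADR outgrowth was empty, with a label that it failed quality control. The ages of the mice are not given in the sources used here.

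Values are log2 signals on Affymetrix arrays made from total RNA, and a difference of 1 is a doubling of signal on that scale. The lymphoma is the replicate, each difference was taken within lymphoma with limma in a fit of all 17 arrays, and p-values were adjusted by the Benjamini-Hochberg method over the 11897 genes, with 0.05 as the threshold. Precision is limited by the number of arrays, which have no sequencing depth. In these bulk samples fewer cells of a type and less RNA per cell cannot be told apart. Signal depends on the probe set, so levels were not compared between genes.

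Some arrays stood apart from the rest. On the first principal component, which carried 33.7% of the variance, ADR 5 d of lymphoma 4936 lay at 67.9, small outgrowth of 5043 at 46.1 and big outgrowth of 5043 at 54.9, against -37.2 to 11.6 for the others. Xist, a long RNA that coats an inactive X chromosome, was 5.70, 5.80 and 5.99 above its lymphoma's median on those 3 arrays, and 3.49 below it (-3.49) on ADR+4-OHT 5 d of 4146, against -0.72 to 2.72 on the other 13 arrays, so these 4 arrays differ from others labelled with the same lymphoma. Some results are given again below without these arrays, and others moved as well. Without the 3 that stood apart, the log2 difference of ADR against untreated went from 0.68 to 0.15 for Rel and from 0.26 to -0.30 for Bcl3. In the same fit, ADR+4-OHT against ADR went from 0.17 to 0.70 for Rel and from -0.29 to 0.27 for Bcl3. B-cell markers averaged 7.96 to 10.1 over 9 genes on the 17 arrays, as the label of B-cell lymphoma has it. The mean of 14 macrophage markers was 4.29 to 4.8 in untreated cells, 5.31 to 7.50 after ADR, 5.40 to 6.32 after ADR+4-OHT, 4.95 to 5.70 in the ADR outgrowth, 4.37 to 4.90 in the small and 5.25 to 5.92 in the big outgrowth. Of these markers, Mrc1, C1qa, C1qb, C1qc and Cd163 lay under 4.86 on all 17 arrays. Others reached far higher values: Lyz2 ran from 2.26 to 14.5, Tyrobp from 7.25 to 12.8 and Cd68 from 7.04 to 10.1. Cd14 ran from 3.41 to 9.81, Csf1r from 4.35 to 9.48, Adgre1 from 3.53 to 9.48 and Itgam from 3.43 to 9.04. Fcer1g ran from 5.06 to 9.27 and Fcgr1 from 4.97 to 5.87. The mean of 11 fibroblast markers was 4.27 to 4.68 in untreated cells, 5.34 to 6.51 after ADR, 4.49 to 5.13 after ADR+4-OHT, 4.18 to 4.40 in the ADR outgrowth, 4.71 to 5.30 in the small and 6.08 to 7.08 in the big outgrowth. Of these markers, Pdgfrb and Postn lay under 4.86 on all 17 arrays, Thy1 on 16, and Col1a1 and Lum on 15. Bgn ran from 4.79 to 12.0, Sparc from 4.78 to 11.9 and Col1a2 from 4.75 to 11.0. Only 9 of the 14 macrophage and 6 of the 11 fibroblast markers passed the filter and were tested. Some passed through few arrays: Adgre1 lay under 4.86 on 14, Col3a1 on 13 and Cd14 on 11. Counts of tested markers above 0 given below thus depend in part on the filter. Macrophages and fibroblasts express NF-kB genes too, and the part of these markers in the results below was not tested.

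Because several of these genes are known targets of the factor they encode or inhibit, their promoters were searched for the 10-base kB consensus, the sequence that NF-kB dimers bind, on both strands, in the 300 bases around each RefSeq start site (250 before and 50 after, GRCm38.p6). Promoter entries were at hand for 8 of the 10 genes, and 6 of the 8 had at least 1 match, against 5.14% of all 27025 genes with an entry. The matches lay in Nfkb2, Rel, Nfkbia, Nfkbie, Tnfaip3 and Bcl3, and no match lay in the windows of Rela and Nfkbib. A match is a string of letters and not a measured binding site. The 110 bases before the start are shown for 6 genes, to set those with a match beside Rela, the member with the clearest change; capitals mark the matches. The windows are chr19:46304627-46304736 (plus strand, the first of its start sites) for Nfkb2, chr11:23770970-23771079 (minus) for Rel, chr19:5637431-5637540 (plus) for Rela, chr12:55492648-55492757 (minus) for Nfkbia, chr17:45555590-45555699 (plus) for Nfkbie and chr10:19015411-19015520 (minus, the first of its start sites) for Tnfaip3, each written 5′ to 3′ on the gene's strand.
Nfkb2: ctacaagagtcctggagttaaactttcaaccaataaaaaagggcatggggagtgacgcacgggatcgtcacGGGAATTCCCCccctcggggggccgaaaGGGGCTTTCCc
Rel: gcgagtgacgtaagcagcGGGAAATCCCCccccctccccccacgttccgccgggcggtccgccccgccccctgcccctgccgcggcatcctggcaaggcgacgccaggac
Rela: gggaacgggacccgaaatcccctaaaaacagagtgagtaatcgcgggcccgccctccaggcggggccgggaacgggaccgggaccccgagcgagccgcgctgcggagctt
Nfkbia: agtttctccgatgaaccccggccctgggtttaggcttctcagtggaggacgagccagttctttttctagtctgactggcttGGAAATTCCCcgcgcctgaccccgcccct
Nfkbie: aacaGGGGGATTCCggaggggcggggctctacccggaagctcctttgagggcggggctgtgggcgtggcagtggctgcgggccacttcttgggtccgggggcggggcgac
Tnfaip3: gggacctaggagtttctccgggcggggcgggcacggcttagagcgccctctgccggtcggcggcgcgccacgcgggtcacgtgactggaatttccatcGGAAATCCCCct
In Nfkb2 overlapping matches ran from -39 to -29 and another from -11 to -2 before the start. In Rel overlapping matches ran from -92 to -82. The match of Nfkbia lay at -29 to -20, that of Nfkbie at -106 to -97 and that of Tnfaip3 nearest the start at -12 to -3. Tnfaip3 had a further match at -125 to -116, outside the printed stretch, and Bcl3 had its match after the start, at 3 to 12.

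Rela, which encodes p65, the main activating subunit of the canonical pathway, was the only one of the 9 genes whose change passed the test in any of the 9 comparisons. Its log2 signal in lymphomas 4146, 4936 and 5043 was 9.19, 8.47 and 9.20 untreated, 9.22, 9.46 and 9.20 after ADR, and 9.98, 9.55 and 9.74 after ADR with 4-OHT. In the outgrowths Rela stood at 9.35 and 9.09 (ADR, lymphomas 4146 and 4936), at 8.78, 8.33 and 8.67 (small) and at 9.16, 9.31 and 9.22 (big). The 3 ADR+4-OHT 5 d arrays were thus the 3 highest of the 17: the lowest of them, 9.55, lay above the highest of the 14 others, 9.46. An order of that kind was seen for 178 of the 11897 genes (1.5%). The small outgrowth gave 3 of the 4 lowest values, and the other was untreated 4936.

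After 5 days of ADR with 4-OHT, Rela rose by 0.80 (SE 0.19, 95% confidence interval 0.39 to 1.21, limma adjusted p = 0.0455) over untreated cells, a 1.75-fold rise (1.31 to 2.32), and it was higher in 3 of 3 lymphomas, by 0.79, 1.08 and 0.54. That comparison called 350 of 11897 genes (2.94%), 106 of them higher (0.891%), and 1 of the 9 genes described here. The adjusted p lay close to the threshold. In the same comparison 9 of 9 macrophage markers tested were above 0 (median 1.64, 1 of them past the threshold), 6 of 6 fibroblast markers were above 0 (median 0.73), and the 3′ minus 5′ difference of Actb, a sign of RNA quality, was 1.39 to 1.65 in untreated and 1.17 to 1.51 in treated cells; their part in the result was not tested. The call was kept without the 3 arrays that stood apart (adjusted p = 0.0441). Those lie outside both compared groups, so the difference stayed at 0.80 and only the estimate of spread could change. The call was lost without those and ADR+4-OHT 5 d of 4146 (0.74, adjusted p = 0.0758), with the 6 arrays of the compared groups alone (0.167), and without each lymphoma in turn (adjusted p from 0.152 to 0.273). With 1 array left out at a time it was kept in 3 of 17 fits, those without ADR 5 d of 4936 or either ADR outgrowth array, with differences of 0.60 to 0.93 and adjusted p from 0.0279 to 0.181 over the 17.

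ADR alone gave Rela 0.34 above untreated (SE 0.19, adjusted p = 0.502), made up of 0.03, 0.99 and -0.01 in the 3 lymphomas, and 0.14 above it without the 3 arrays that stood apart (adjusted p = 0.958). The lymphoma with the gap of 0.99 is 4936, whose ADR array stood apart and whose untreated array was the lowest of its group. ADR with 4-OHT lay 0.47 above ADR alone (interval 0.06 to 0.88, limma adjusted p = 0.331), higher in 3 of 3 lymphomas. The groups did not overlap, an order that 9.01% of genes shared. The 3′ minus 5′ difference of Actb was 1.08, 0.56 and 1.17 after ADR alone in 4146, 4936 and 5043. It was 1.39 to 1.65 in untreated cells and 1.17 to 1.51 after ADR with 4-OHT. In ADR with 4-OHT against ADR, 0 of 6 fibroblast markers tested (median -1.65) and 4 of 9 macrophage markers (median -0.46) were above 0. The part of these in the result was not tested. Neither comparison with ADR alone called a gene of the whole table (0% of 11897 in each; 1348 genes for ADR against untreated and 1490 for ADR+4-OHT against ADR at an unadjusted p under 0.05). Comparisons that share the untreated or the ADR arrays are not independent of each other.

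**Figure D1:**
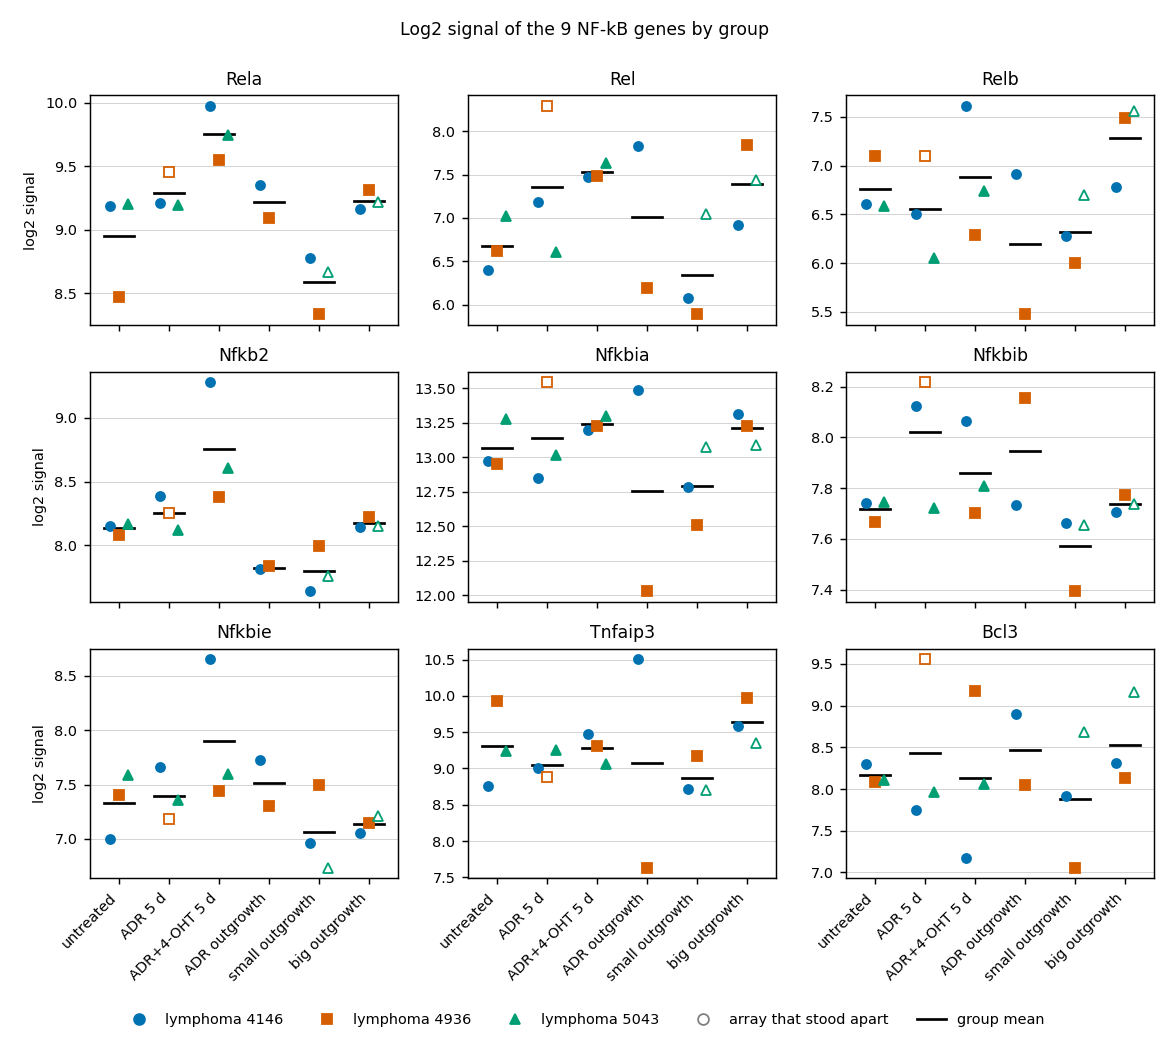
Log2 signal of the 9 genes (y axis, 1 panel per gene, each with its own scale) on the 17 arrays by group (x axis); colour and shape give the lymphoma, bars the group means, and hollow markers the 3 arrays that stood apart. Rela is highest in the 3 ADR+4-OHT 5 d arrays, from 9.55 to 9.98, whereas Tnfaip3 in the ADR outgrowth runs from 7.63 to 10.51.

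Nfkb2 encodes p100, the precursor of p52 and itself an IkB-like inhibitor of RelB in the non-canonical pathway. Its signal was 8.15, 8.08 and 8.17 untreated, 8.39, 8.25 and 8.12 after ADR, and 9.28, 8.38 and 8.61 after ADR with 4-OHT. It was 7.81 and 7.84 in the ADR outgrowth, 7.64, 7.99 and 7.76 in the small and 8.15, 8.22 and 8.15 in the big outgrowth. The ADR+4-OHT arrays all lay above the untreated arrays, and the ADR and small outgrowth arrays all lay below them, orders that 15.2%, 10.9% and 9.2% of all genes shared in those 3 comparisons. The difference of ADR with 4-OHT from untreated was 0.62 (SE 0.19, interval 0.20 to 1.04, adjusted p = 0.103), and the array of 4146, with 1.13, supplied most of it. Without that array and the 3 that stood apart the difference was 0.35 (adjusted p = 0.311). A second probe set of Nfkb2, which correlated at r = 0.65 with the one used over 17 arrays, gave 0.10 (adjusted p = 0.928 over all probe sets). It read 7.07, 7.33 and 7.44 untreated and 8.06, 6.94 and 7.13 after ADR with 4-OHT. The probe sets thus disagreed in size, and in direction in 4936 and 5043. On the second, the ADR+4-OHT and the ADR outgrowth arrays overlapped the untreated ones, while the small outgrowth arrays again lay below them.

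Rel encodes c-Rel, a subunit prominent in lymphocytes. Its signal was 6.40, 6.61 and 7.02 untreated, 7.18, 8.29 and 6.61 after ADR, and 7.47, 7.48 and 7.63 after ADR with 4-OHT. It was 7.83 and 6.19 in the ADR outgrowth, 6.08, 5.89 and 7.05 in the small and 6.92, 7.84 and 7.44 in the big outgrowth. The ADR+4-OHT arrays again lay above all untreated arrays and were close to each other, while ADR alone spread over 6.61 to 8.29, its highest value on the array of 4936 that stood apart. The difference of ADR with 4-OHT from untreated was 0.85 (SE 0.50, interval -0.24 to 1.94, adjusted p = 0.393), with all 3 lymphomas higher.

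Relb encodes the partner of p52 in the non-canonical pathway. Its signal was 6.60, 7.10 and 6.58 untreated, 6.51, 7.10 and 6.05 after ADR, and 7.61, 6.29 and 6.74 after ADR with 4-OHT. It was 6.91 and 5.47 in the ADR outgrowth, 6.28, 6.0 and 6.69 in the small and 6.78, 7.49 and 7.56 in the big outgrowth. The lymphomas disagreed at 5 days: ADR with 4-OHT differed from untreated by 1.01 in 4146, -0.80 in 4936 and 0.16 in 5043. Its mean difference was 0.12 (SE 0.44, adjusted p = 0.929).

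Set against untreated cells, ADR with 4-OHT gave a value above 0 for all 4 subunits, with a median of 0.71. It did so for 3 of the 5 inhibitors and modifiers, with a median of 0.14. Over all genes 50.3% were above 0 and the median was 0.00. Without the 4 arrays Relb was below 0 (-0.17) and Nfkb2 was at 0.35, while Rel was at 0.92 and Rela at 0.74. With the probe sets used, 3 of the 9 genes (Nfkb2, Rel and Rela) had ADR+4-OHT arrays entirely above the untreated ones, against 15.2% of all genes. Nfkbie, which encodes IkB-epsilon, read 7.0, 7.40 and 7.59 untreated and 8.65, 7.44 and 7.59 after ADR with 4-OHT, so that its difference of 0.57 (adjusted p = 0.344) came from 4146 alone and was 0.15 without the 4 arrays. Its second probe set followed it (r = 0.95). The IkB-alpha gene Nfkbia, the inhibitor that is destroyed and made anew most rapidly, was near its untreated values at 5 days: 12.98, 12.95 and 13.28 untreated, and 13.20, 13.22 and 13.30 after ADR with 4-OHT, a difference of 0.17 (interval -0.49 to 0.84, adjusted p = 0.833).

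Nfkbib, for IkB-beta, read 7.74, 7.67 and 7.75 untreated and 8.07, 7.70 and 7.81 after ADR with 4-OHT, with a difference of 0.14 (SE 0.17, adjusted p = 0.725); with ADR alone it was 0.30 (adjusted p = 0.503). Tnfaip3 encodes A20, a ubiquitin-editing enzyme that shuts off signalling to IKK. It read 8.76, 9.92 and 9.24 untreated, 9.01, 8.89 and 9.25 after ADR, and 9.48, 9.31 and 9.06 after ADR with 4-OHT, with overlapping groups and a difference of -0.03 (SE 0.55, adjusted p = 0.992). Bcl3, an unusual nuclear IkB protein that works with p50 and p52 dimers, read 8.30, 8.09 and 8.11 untreated and 7.17, 9.17 and 8.06 after ADR with 4-OHT: it was lower by 1.13 in 4146 (-1.13) and higher by 1.09 in 4936. Its fitted difference was -0.03 over all arrays and 0.58 without the 4 arrays (limma adjusted p = 0.405). For these genes the intervals are wide, from -1.24 to 1.18 for Tnfaip3 and from -1.32 to 1.26 for Bcl3, and they leave room for a doubling either way.

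**Figure D2:**
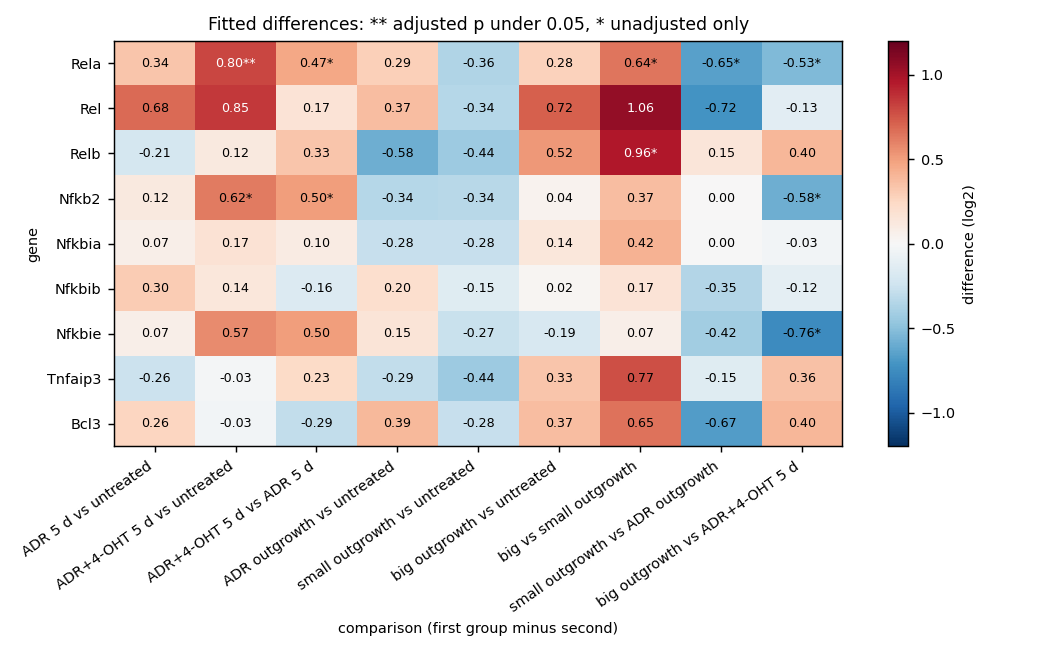
Heat map of the fitted log2 differences, first group minus second, of the 9 genes (rows) in the 9 comparisons (columns), red above and blue below 0, with 1 asterisk for an unadjusted p under 0.05 and a pair of asterisks for an adjusted p under 0.05. Big against small outgrowth is above 0 for all 9 genes, from 0.07 for Nfkbie to 1.06 for Rel, small outgrowth against untreated is below 0 for all 9, and the 0.80 of Rela in ADR+4-OHT 5 d against untreated is the only value past the adjusted threshold.

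The big and the small cells that grew out after ADR with 4-OHT differed in one direction for most of the set. All 9 genes had a fitted difference above 0 in big against small cells, against 46.7% of all genes, 8 of the 9 were higher in big cells of every lymphoma (17.8% of all genes), and 6 of the 9 did not overlap between the groups (8.99%). The median difference of the 9 was 0.64, beside -0.02 over all genes. None passed the test, and no gene of the 11897 did (0%; limma, 1243 genes at an unadjusted p under 0.05). The exception in direction was Nfkbie, higher in big cells by 0.09 and 0.48 in 4146 and 5043 and lower by 0.35 in 4936 (-0.35).

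Among the subunits Rela was 0.64 higher in big cells (SE 0.19, interval 0.23 to 1.05, unadjusted p = 0.00548 and adjusted p = 0.227 in limma), by 0.38, 0.98 and 0.55. Rel was 1.06 higher (SE 0.50, adjusted p = 0.491), by 0.84, 1.95 and 0.39, although its small array of 5043 (7.05) exceeded its big array of 4146 (6.92). Relb was 0.96 higher (SE 0.44, adjusted p = 0.477), by 0.51, 1.49 and 0.87. Nfkb2 was 0.37 higher (adjusted p = 0.538), and 0.23 higher without small outgrowth of 4146, while its second probe set gave 1.01 (adjusted p = 0.235 over all probe sets). In each of Rela, Rel and Relb the gap was widest in 4936. The mean of the fibroblast markers in big and small cells was 7.08 and 4.71 in 4936. It was 6.24 and 5.30 in 4146 and 6.08 and 4.89 in 5043. For the macrophage markers these means were 5.25 and 4.89 in 4936, 5.92 and 4.90 in 4146, and 5.76 and 4.37 in 5043. Xist lay 2.72 above its lymphoma's median on big outgrowth of 4936. The part of these in the gaps was not tested.

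Among the inhibitors and modifiers Tnfaip3 read 9.59, 9.97 and 9.35 in big and 8.72, 9.18 and 8.70 in small cells, a difference of 0.77 (SE 0.55, adjusted p = 0.696). Nfkbia read 13.31, 13.23 and 13.09 in big and 12.79, 12.51 and 13.07 in small cells, a difference of 0.42 (adjusted p = 0.700); the gap in 5043 was 0.02. Of its 5 probe sets 4 gave a positive difference, and the one with the lowest signal gave -0.46. Bcl3 was 0.65 higher (adjusted p = 0.790) and Nfkbib 0.17 higher (adjusted p = 0.815), but without small outgrowth of 4936 these were 0.11 and 0.053; for Bcl3 the fits with 1 array left out ran from 0.11 to 1.04. Without the 3 arrays that stood apart, which removes 5043 from this comparison, 8 of the 9 differences were above 0 with a median of 0.68, and Nfkbie was at -0.13. Macrophage markers had a median difference of 1.57 and fibroblast markers of 3.14 in the same comparison, with 9 of 9 and 6 of 6 tested above 0, and their part in the result was not tested.

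Read against untreated cells, most of the 9 were lower in small and higher in big cells. For Nfkb2 and Nfkbib big cells were near untreated, at 0.04 and 0.02. Nfkbie was below untreated in both fractions (-0.19 in big and -0.27 in small cells). Both comparisons share arrays with big against small, so they are not independent of it. In small cells all 9 differences were below 0, against 51.3% of all genes, with a median of -0.34 beside -0.01 over all genes, and 5 of the 9 were lower in every lymphoma (18.3% of all genes). Nfkb2 and Nfkbib, 2 of the 9, had small arrays entirely below the untreated ones (9.2%). The values were -0.36 for Rela (adjusted p = 0.640), -0.34 for Nfkb2 (adjusted p = 0.670) and -0.44 for both Relb and Tnfaip3. None passed, as for the whole table (0%; 987 genes at an unadjusted p under 0.05). In big cells 8 of the 9 were above 0, against 45.9% of all genes, with a median of 0.28, and Rel had the largest, 0.72 (SE 0.50, adjusted p = 0.492), followed by Relb at 0.52 (adjusted p = 0.574). Without the 3 arrays that stood apart all 9 were below 0 in small cells (median -0.36) and 7 of the 9 were above 0 in big cells (median 0.28). None of the 9 passed in big cells, where 49 genes of the table did (0.412%). There 4 of the 6 fibroblast markers tested rose (median 3.82) and 9 of 9 macrophage markers were above 0 (median 1.37), and their part in the result was not tested.

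**Figure D3:**
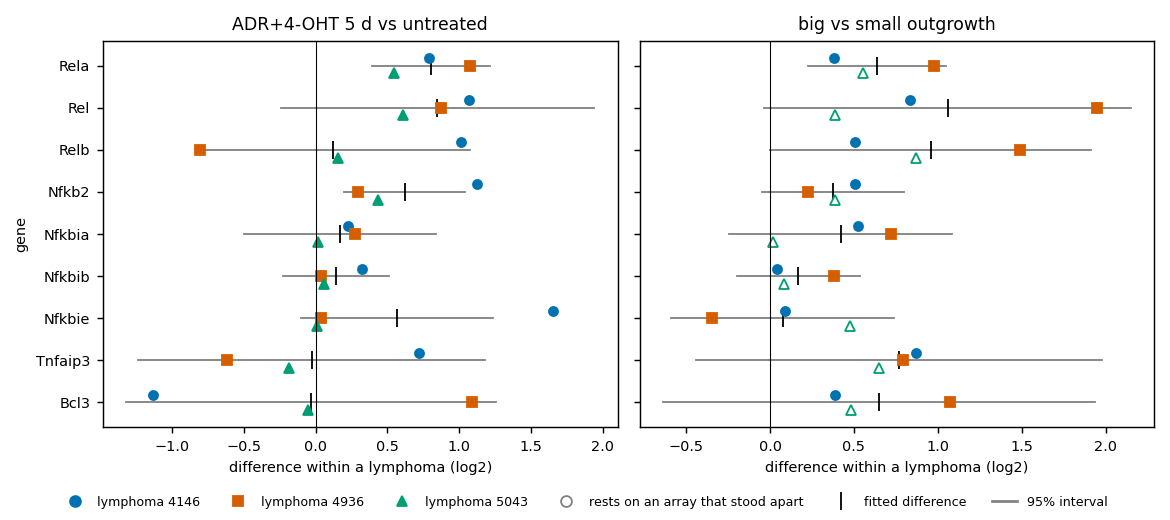
Log2 differences within each lymphoma (x axis; colour and shape give the lymphoma) of the 9 genes (y axis) for ADR+4-OHT 5 d against untreated and for big against small outgrowth, with a tick at the fitted difference, a line for its 95% interval and hollow markers where an array that stood apart enters. For big against small outgrowth 8 of the 9 genes lie above 0 in every lymphoma, while Relb, Tnfaip3 and Bcl3 differ in sign between lymphomas for ADR+4-OHT 5 d against untreated.

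The big cells can also be set against the same treatment 14 days earlier, at the end of exposure. Nfkb2 was 0.58 lower in the big outgrowth than after 5 days of ADR with 4-OHT (-0.58, interval -1.0 to -0.16, adjusted p = 0.0995). Rela differed by -0.53 (SE 0.19, adjusted p = 0.121) and Nfkbie by -0.76 (SE 0.30, adjusted p = 0.161). The lymphoma 4146 gave the largest part for Nfkb2, with -1.13, and for Nfkbie, with -1.60. Without ADR+4-OHT 5 d of 4146 they were -0.32 and -0.37, and without that array and the 3 that stood apart -0.30 (adjusted p = 0.501) and -0.34 (adjusted p = 0.591). The second probe set of Nfkb2 gave 0.17, opposite in sign (adjusted p = 0.800 over all probe sets). By the probe sets used, Nfkb2, Rela and Nfkbie were lower in every lymphoma with no overlap of the groups, an order that 19.8% of all genes showed, and none of the 9 passed in a comparison that called 478 genes (4.02%). Rel and Nfkbia were near their 5-day values, at -0.13 (interval -1.22 to 0.96) and -0.03 (interval -0.70 to 0.64). Values above 0 were given by Relb (0.40) and Bcl3 (0.40), each higher in 2 of 3 lymphomas, and by Tnfaip3 (0.36), higher in 3 of 3; without the 4 arrays Bcl3 was at -0.63.

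The ADR outgrowth rests on 2 lymphomas, and they disagreed for most of the set. Tnfaip3 was 1.75 above untreated in 4146 (10.51 against 8.76) and 2.29 below it in 4936 (7.63 against 9.92), the widest split of any member. Rel differed by 1.43 and -0.42, Relb by 0.31 and -1.62 and Nfkbia by 0.51 and -0.92 in the same lymphomas. Rela was higher in both, by 0.17 and 0.62, and Nfkb2 lower in both, by 0.34 and 0.24 (-0.34 and -0.24). The second probe set of Nfkb2 read 7.23 in 4146 and 6.38 in 4936, against 7.07 and 7.33 untreated, so there the lymphomas disagreed. None of the 9 and no gene of the table passed (0%; limma, 534 genes at an unadjusted p under 0.05). Against the ADR outgrowth, small cells had Rela at -0.65 (SE 0.21, interval -1.12 to -0.18, adjusted p = 0.281), lower in both lymphomas. Rela and Nfkbib, 2 of the 9, did not overlap there (17.2% of all genes), and again 0 of the 9 and 0% of genes passed, with 1598 at an unadjusted p under 0.05.

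For the small fraction, the difference between cells with and without 4-OHT was opposite in sign for Rela at the 2 stages: 0.47 at 5 days and -0.65 between the small and the ADR outgrowth. The big fraction had a mean of 9.23, beside 9.22 in the ADR outgrowth, and that pair was not fitted as a comparison. The difference between the -0.65 of the small fraction and the 0.47 at 5 days was -1.12 (SE 0.28, limma unadjusted p = 0.00214, adjusted p = 0.308). It did not pass over all genes, and no gene of the table did. The small cells are a sorted fraction and the ADR outgrowth is not, which is part of that contrast. The test over all 6 groups gave Rela an adjusted p of 0.0508 and Nfkb2 one of 0.0764, both above the threshold, with 313 genes (2.63%) below it. For the other 7 genes the adjusted p ran from 0.358 to 0.900.

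Ordered by group mean, Rela, Nfkb2, Rel, Nfkbia and Nfkbie were highest after ADR with 4-OHT, Relb, Tnfaip3 and Bcl3 in the big outgrowth, and Nfkbib after ADR. The small outgrowth was lowest for all but Relb and Nfkbia, whose lowest mean was that of the ADR outgrowth. The range between the highest and the lowest group mean was 1.16 for Rela, against an SD of 0.41 over its lymphoma-centred arrays, and 0.65 for Bcl3, against an SD of 0.65. With the probe sets used, groups next to each other in these orders overlapped with 3 exceptions: Rela in ADR+4-OHT 5 d above ADR 5 d, Nfkb2 in untreated cells above the ADR outgrowth, and Nfkbib in untreated cells above the small outgrowth.

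Across the 17 arrays, after centring within lymphoma, 33 of the 36 pairs of members correlated above 0, with a median r of 0.37; without the 4 arrays the count was again 33 and the median 0.32. Rel and Nfkbia had r = 0.82 (0.79 over 13 arrays), and Nfkbia and Tnfaip3 had 0.68 (0.86). Nfkb2 and Nfkbie had 0.76 over 17 arrays and 0.20 over 13, so that their likeness rested on those 4 arrays. These are descriptions: the arrays share groups, lymphomas and any admixed cells. For the 3 members with the largest spread the genes of most similar pattern over 17 arrays were Fosl2 (r = 0.88), Aga (0.86) and Specc1 (0.85) for Rel, Fbxw17 (0.87), Pip4k2a (0.87) and Cyrib (0.86) for Bcl3, and Rnf19a (0.88), Tyk2 (0.86) and Rlf (0.86) for Tnfaip3.

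The rest of the pathway was read from a list of 98 genes, of which 91 had a named probe set and 86 were tested. They comprise receptors and ligands, signalling proteins, other inhibitors and cofactors, and target genes. In ADR with 4-OHT against untreated, 0 of the 86 rose and 1 fell, 66 were above 0 (50.3% of all genes were) and the median was 0.35, beside 0.00 over all genes. The gene that fell was Commd1, which promotes the ubiquitination and degradation of RelA: its signal was 10.38, 10.69 and 10.31 untreated and 9.36, 9.43 and 9.50 after ADR with 4-OHT. The change was -1.03 (SE 0.19, adjusted p = 0.0221), lower in 3 of 3 lymphomas and with no overlap (15.8% of all genes). Commd1 stood at 10.50, 10.41 and 10.65 in the big outgrowth, 1.09 above ADR with 4-OHT (SE 0.19, adjusted p = 0.0220), and at 10.99, 10.39 and 10.69 in the small.

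Both calls of Commd1 were lost when each lymphoma was left out in turn (adjusted p from 0.121 to 0.251 and from 0.0524 to 0.261). With 1 array left out at a time the fall passed in 13 of 17 fits, and it missed without the untreated arrays of 4936 (adjusted p = 0.0913) and 5043 (0.0562) or the ADR+4-OHT arrays of 4936 (0.0727) and 5043 (0.0846). The rise passed in 12 of 17 and missed without any big outgrowth array or the ADR+4-OHT arrays of 4936 and 5043 (adjusted p up to 0.0866), and without the 3 arrays that stood apart it was 1.0 (adjusted p = 0.0845). Map3k7, which encodes TAK1, a kinase upstream of IKK, read 8.55, 8.69 and 8.64 after ADR with 4-OHT and 7.60, 6.90 and 6.51 in the big outgrowth. It fell by 1.62 (SE 0.23, limma adjusted p = 0.0181), lower in 3 of 3 lymphomas. Low values were not particular to the big cells: Map3k7 read 7.80, 7.35 and 7.07 in the small outgrowth and 8.30, 7.99 and 8.28 untreated. Its call was lost without each lymphoma (adjusted p from 0.0747 to 0.163), without the 4 arrays (0.0582), and without the arrays of ADR+4-OHT 5 d of 4936 (0.0725) and 5043 (0.0765) or big outgrowth of 4936 (0.0683). In that comparison 4 of the 6 fibroblast markers tested rose (median 3.07), and their part in the result was not tested. There 1 of the 86 pathway genes rose and 1 fell; in the 7 comparisons not named here none passed.

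**Figure D4:**
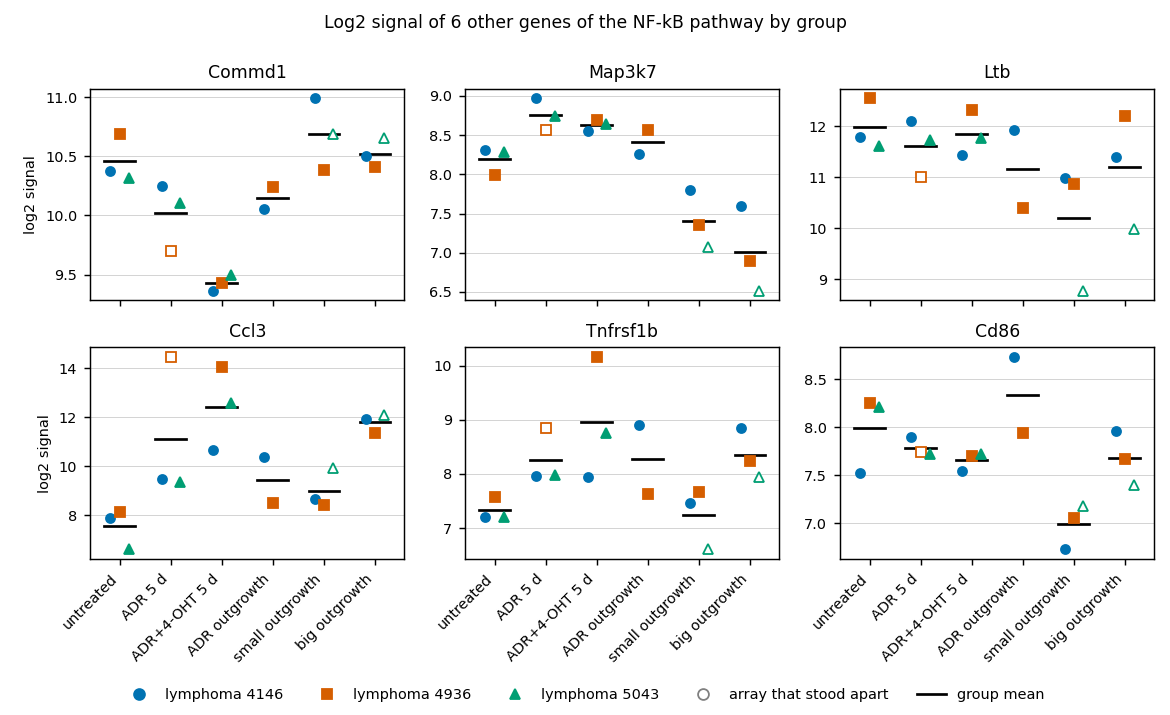
Log2 signal (y axis, each panel with its own scale) of 6 other genes of the pathway by group (x axis), with lymphomas by colour and shape, bars at the group means and hollow markers for the 3 arrays that stood apart. Commd1 is lowest in the 3 ADR+4-OHT 5 d arrays, from 9.36 to 9.50. Map3k7 lies between 6.51 and 7.60 in the big and between 7.07 and 7.80 in the small outgrowth, against 8.55 to 8.69 after ADR with 4-OHT.

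By class, the 32 target genes tested had a median difference from untreated of 0.74 after ADR with 4-OHT and 0.64 after ADR alone. It was 0.88 in the big and 0.25 in the small outgrowth. Above 0 were 27, 23, 28 and 23 of the 32, in that order. Over all genes 50.3% were above 0 after ADR with 4-OHT and 45.9% in the big outgrowth. In the small outgrowth 51.3% of all genes were below 0, and for ADR alone the median over all genes was 0.02. None of the targets passed in these comparisons. Ccl3, a chemokine that macrophages also secrete, was, with Cd86, one of the targets with the lowest unadjusted p over all comparisons: 7.90, 8.14 and 6.60 untreated against 10.65, 14.05 and 12.56 after ADR with 4-OHT, a difference of 4.87 (SE 1.18, adjusted p = 0.0509, and 0.0214 without the 3 arrays that stood apart). Cd86, a costimulatory ligand on activated B cells, stood 1.36 lower in small cells than in the ADR outgrowth (-1.36, limma adjusted p = 0.243). The 15 receptors and ligands had medians of 0.12 and 0.47 after ADR with and without 4-OHT. Tnfrsf1b, which encodes TNF receptor 2, stood 1.62 above untreated after ADR with 4-OHT (adjusted p = 0.0929, and 2.24 with 0.0233 without the 4 arrays), and Ltb, a ligand of the non-canonical pathway, 1.78 below untreated in small cells (-1.78, adjusted p = 0.531, and -1.18 without the 3 arrays that stood apart). Of the 22 signalling genes Traf5, an adaptor of TNF receptors, differed by -1.27 after ADR with 4-OHT (adjusted p = 0.0536, and -1.72 with 0.00505 without the 4 arrays). With each lymphoma left out in turn, Ccl3, Tnfrsf1b and Traf5 never passed (limma adjusted p from 0.122 to 0.325, 0.077 to 0.398 and 0.077 to 0.34). With 1 array left out they passed in 4, 1 and 3 of 17 fits. For Ccl3 the 3 arrays that stood apart lie outside the compared groups, so its difference stayed at 4.87 without them. Of the 17 other inhibitors and cofactors Tnip1, a partner of A20, was 0.56 higher in big than in small cells (adjusted p = 0.194), higher in 3 of 3 lymphomas as was Tnfaip3.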

How the data were processed

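The authors deposited log2 signals, 1 value per probe set and array, made with RMA, with Partek also named, per the submitters' processing notes; versions and the genome build are not given in the sources used here. In each of the 45101 probe sets the medians of the 3 lymphomas were equal (tolerance 1e-06): lymphoma offsets were taken out before deposit, by a step that no label states. Of 18 columns 1 held no values. The platform annotation gave 34958 probe sets 1 symbol and 932 several, which were left out. Genes with at least 4.86 on at least 3 arrays were kept.

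A model of the 6 groups with an additive lymphoma block (9 residual and 2.53 prior degrees of freedom) was fitted in R 4.3.3 with limma 3.58.1, with two-sided moderated tests, and tested on simulated data. The titles give every array the same replicate number, so the lymphoma was taken as the replicate. Each lymphoma received the treatments, per the labels' protocols. The pairing could not be checked on the values, since median removal sets arrays of a lymphoma apart (median r of group-centred values -0.117 within and 0.058 between lymphomas). Alternatives were other filters, probe set rules, normalizations, array weights and left-out arrays or lymphomas.

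The genes described, the gene lists and the tests were chosen with earlier results of these data known. All members are named. From each class of other pathway genes, at most 4 that passed in a comparison are named, and the 2 with the lowest unadjusted p over all comparisons are given as values. Correlations used values centred within lymphoma.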

Additional observations from a re-analysis of the deposited data

How the results depend on the processing

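The 81 differences (9 genes in 9 comparisons) were recomputed under each alternative except every probe set, 2511 values in all. Of these values 140 changed sign, in 41 of the differences. The only called difference, that of Rela in ADR+4-OHT 5 d against untreated, was not reversed. It often lost its call, and with 1 array left out it passed in 3 of 17 fits. The number of members called in ADR+4-OHT 5 d against untreated was 1 and became 0 without a filter, with every probe set, with median centring, with the compared groups only, and without the 3 outlying arrays and ADR+4-OHT 5 d of 4146; leaving out a lymphoma or an array gave 0 to 1. In the test over 6 groups it was 0 and became 2 with no replicate block, 1 with a filter at the 60th percentile, with the mean over probe sets and with every probe set, and 2 with array quality weights; leaving out a lymphoma or an array gave 0 to 2, with 2 without ADR outgrowth of 4146. Array quality weights, whose fit stopped before its tolerance, also called 1 member, Rela, in ADR+4-OHT 5 d against ADR 5 d and in big outgrowth against ADR+4-OHT 5 d, where the other fits called 0. The cause was not tested, apart from the fewer arrays in some fits. Genes of the whole table called ranged, over the alternatives that kept all lymphomas and weighted arrays equally, from 0 to 779 (350 in the fit used) for ADR+4-OHT 5 d against untreated, from 0 to 920 (478) for big outgrowth against ADR+4-OHT 5 d, from 0 to 182 (49) for big outgrowth against untreated and from 1 to 1157 (313) for the test over 6 groups; array quality weights gave 1583, 2456, 1421 and 4132. Where the fit used gave 0, equal weights reached 68 for big against small outgrowth and 13 between the ADR+4-OHT and ADR groups at 5 days, and array quality weights 261 and 1099. Without the replicate block the call of Rela in ADR+4-OHT 5 d against untreated was kept, and the other comparisons kept their count of 0.

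With 3 lymphomas a group the median SE over the members was 0.30 for the differences. Each probe set reports 1 part of a transcript, and members other than Rela, Rel, Relb and Bcl3 had further probe sets.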
